A study of Mus musculus with 16 samples.

Results

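A set of 10 imprinted genes that control growth was followed through the mouse testis at postnatal days 14 and 16 (P14 and P16): H19, Igf2, Dlk1, Meg3, Rian, Mirg, Peg3, Plagl1, Grb10 and Cdkn1c. The genes were chosen by name, as imprinted genes whose expression is known to fall as growth slows after birth, with no threshold on any value. Earlier results of these data were known when they were chosen. All 10 symbols were found among the 55414 gene IDs of the deposited tables, and all 10 passed the filters on low values in every comparison. The study profiled testis RNA from mice with a conditional knockout (cKO) of Ythdc2, which encodes an RNA helicase needed in male germ cells, and from mice of a pair of control types, labelled control and Cre control. Control, Cre control and cKO mice alike had received tamoxifen at 10 mg/ml on P12 and P13, so the exposure is shared by every group. There were 2 control, 2 Cre control and 3 cKO libraries at P14, and 2 control, 4 Cre control and 3 cKO libraries at P16. Column headers of the deposited values mark the control libraries WT and the Cre control libraries Ctrl. Beyond this, the labels give neither the Cre driver nor the alleles that the controls carry. They do not say that libraries came from separate animals, so p-values measure only the spread between these libraries.

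An imprinted gene is expressed mainly from the copy inherited from a particular parent, because the other copy is silenced by marks set in the parental germ line. Paternally expressed genes of this group include the growth factor gene Igf2, the Notch-like ligand gene Dlk1 and the zinc finger genes Peg3 and Plagl1. Maternally expressed genes include Grb10, an adaptor that dampens insulin-type receptor signalling, Cdkn1c, an inhibitor of cyclin-dependent kinases, and the long non-coding RNAs H19, Meg3, Rian and Mirg. H19 lies next to Igf2, and Dlk1, Meg3, Rian and Mirg lie in a single imprinted domain. In GENCODE M21, H19, Igf2, Cdkn1c and Peg3 are on chromosome 7, the Dlk1 domain is on chromosome 12, Plagl1 is on chromosome 10 and Grb10 is on chromosome 11. Many of these genes form a network that is active in fetal and early postnatal tissues and is switched down as organs approach their final size. The counts sum reads from both parental copies, so imprinting itself was not measured.

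Several of the genes, mostly the non-coding ones, are hosts of small RNAs, which are shown because the libraries read the host transcript and not the small RNA. RefSeq (GRCm38.p6) places 1 hairpin in H19, 1 in Igf2, 1 in Meg3, 3 in Rian and 10 in Mirg. The mature sequences below run 5′ to 3′, with the seed (bases 2 to 8, which pair with target messages) in capitals. Both miR-675 arms come from H19, miR-370-3p comes from Rian, and the rest come from Mirg.
mmu-miR-675-5p: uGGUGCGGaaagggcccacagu
mmu-miR-675-3p: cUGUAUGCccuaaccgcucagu
mmu-miR-370-3p: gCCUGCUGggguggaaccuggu
mmu-miR-154-5p: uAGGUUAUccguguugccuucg
mmu-miR-410-3p: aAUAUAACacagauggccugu
mmu-miR-453: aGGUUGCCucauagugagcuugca
mmu-miR-496a-5p: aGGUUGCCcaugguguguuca
The last pair shares the seed GGUUGCC, the only seed shared among the 31 mature sequences of the hosts. The separate rows for these hairpins held 0 to 3 reads in any library. The values given here for H19, Igf2, Meg3, Rian and Mirg are therefore those of the host RNAs, and they say nothing of the small RNAs.

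Upstream sequences are shown for Dlk1, Meg3, Peg3 and Plagl1, which stand at the centre of the comparisons below. They end before the first base annotated as an exon of the same gene, at most 250 bases in length, and come from RefSeq's GRCm38.p6 table. Capitals mark TGCCGC on either strand, the core of the motif bound by the imprint-protecting protein ZFP57, or TGACGTCA, the cyclic-AMP response element, which was searched after the windows had been read.
Dlk1 (chr12:109452573-109452822, plus strand): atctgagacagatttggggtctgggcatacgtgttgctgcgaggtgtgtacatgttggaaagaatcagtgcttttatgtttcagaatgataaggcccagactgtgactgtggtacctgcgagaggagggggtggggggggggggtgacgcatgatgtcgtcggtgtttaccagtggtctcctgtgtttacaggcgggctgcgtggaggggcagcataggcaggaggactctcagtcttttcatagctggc
Meg3 (chr12:109540746-109540995, plus strand): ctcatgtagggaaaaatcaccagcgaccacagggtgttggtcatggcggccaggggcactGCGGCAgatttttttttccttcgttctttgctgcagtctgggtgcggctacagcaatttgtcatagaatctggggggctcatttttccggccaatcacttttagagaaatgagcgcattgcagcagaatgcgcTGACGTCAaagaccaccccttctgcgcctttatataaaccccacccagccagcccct
Peg3 (chr7:6730432-6730669, minus strand): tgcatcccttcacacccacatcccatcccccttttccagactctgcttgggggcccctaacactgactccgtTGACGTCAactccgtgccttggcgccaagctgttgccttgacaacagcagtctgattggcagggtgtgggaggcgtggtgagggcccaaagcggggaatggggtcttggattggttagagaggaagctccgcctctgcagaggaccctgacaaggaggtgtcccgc
Plagl1 (chr10:13090582-13090690, plus strand): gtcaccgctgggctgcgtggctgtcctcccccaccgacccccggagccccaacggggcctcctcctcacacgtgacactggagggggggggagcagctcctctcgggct
TGCCGC or its reverse complement GCGGCA was present in 4 of the 13 windows of 300 bases given for 8 of the genes, counting 250 bases before and 50 after each start. The 4 windows belonged to Igf2, Plagl1, Grb10 and Meg3, and the Plagl1 match lies beyond the bases shown. Over all 32851 windows of the table, 11.6% held it. TGACGTCA, which reads alike on both strands, was present in 2 of the 13 windows, those of Meg3 and Peg3, against 1.79% of all windows. The motifs do not overlap each other. These matches describe letters only, and no binding or methylation was measured here.

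Libraries held 14494867 to 27531529 reads on genes. Per the labels, ribosomal RNA had been removed with the Ribo-Zero kit (first kit) from the controls and from cKO libraries 1 and 2, and with the NEBNext depletion kit (second kit) from the Cre controls and cKO library 3. Ythdc2 itself was measured first, as a check of the labels. Levels are given in CPM, the reads of the gene scaled to the library's reads on genes, which were first adjusted by TMM factors within the kit. With the first kit Ythdc2 stood at 84.2 and 93.9 CPM in the P14 controls and at 27.2 and 31.2 in cKO. In the P16 controls it stood at 103 and 101, and in cKO at 19.3 and 21.0. With the second kit it stood at 73.6 and 80.2 CPM in the P14 Cre controls against 17.7 in cKO, and at 70.9 to 133 in the P16 Cre controls against 11.7 in cKO. Within each stage and kit, no cKO library reached the level of a control. In the comparison with the first-kit controls, Ythdc2 was at 32.9% of control at P14 (limma adjusted p 0.0148) and at 19.8% at P16 (2.39e-10). CPM values were scaled within a kit, so levels of the kits are set side by side below and are not compared by a test.

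The 10 genes spanned a wide range of levels. Per kilobase of annotated exon, Peg3 was the most abundant in the P14 controls at 11.8 ± 0.834 CPM per kilobase (SD, n = 2). Grb10 followed at 9.64 ± 0.674, H19 at 7.66 ± 0.354, Dlk1 at 6.32 ± 0.695 and Cdkn1c at 5.4001 ± 0.0855. Plagl1, at 1.58 ± 0.00126, and Rian, at 1.25 ± 0.137, were lower. Meg3 stood at 0.247 ± 0.0463, Igf2 at 0.165 ± 0.0118 and Mirg at 0.157 ± 0.00367. Igf2 and Mirg were the only neighbours in this order whose libraries overlapped. In GENCODE M21, exons of Rian, Mirg, Meg3, H19 and Igf2 overlap those of 9, 9, 3, 1 and 1 other genes on the same strand. The effect of such overlaps on the levels was not tested. With the second kit the order differed, and Dlk1 was the most abundant in the P14 Cre controls at 14.3 ± 1.87 (SD, n = 2). Grb10, at 10.69 ± 0.717, and Peg3, at 10.66 ± 1.07, followed there. Igf2 rested on 13 to 24 reads in each first-kit library and Mirg on 20 to 45, against 86 to 142 for Meg3, so the precision for Igf2 and Mirg is limited by counting.

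Igf2 was read very differently by the kits. It stood at 0.942 CPM in the P14 controls of the first kit and at 5.33 CPM in the P14 Cre controls of the second, a ratio of 5.66. The cKO libraries of P14 held 0.843 and 0.768 CPM with the first kit and 4.79 with the second. Igf2 exons overlap those of Gm49394 on the same strand and of Igf2os on the other strand in GENCODE M21. In first-kit libraries Gm49394 ranged from 0.183 to 0.540 CPM and Igf2os from 0.745 to 1.65, and in second-kit libraries their ranges were 0.591 to 1.33 and 0.702 to 2.36. The strand setting used in counting is not given in the sources used here. Dlk1, which overlaps no other annotated gene, was also higher with the second kit, at 81.1 against 35.8 CPM in the P14 control types, a ratio of 2.27. In the P14 cKO libraries it held 32.2 and 40.3 CPM with the first kit and 95.2 with the second, so for Igf2 and Dlk1 the gap was present within a genotype too. Mirg was lower with the second kit in the P14 control types, at 0.554 against 1.14 CPM, a ratio of 0.484. The Cre controls there held 9 and 8 reads, and the P16 ratio was 0.868. In the P14 cKO libraries Mirg was not lower, at 1.18 against 0.803 and 0.915. For the other 7 genes the ratio between the P14 control types was between 0.717 and 1.45. The kits were also sequenced in different runs, and kit and run cannot be told apart.

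**Figure D1:**
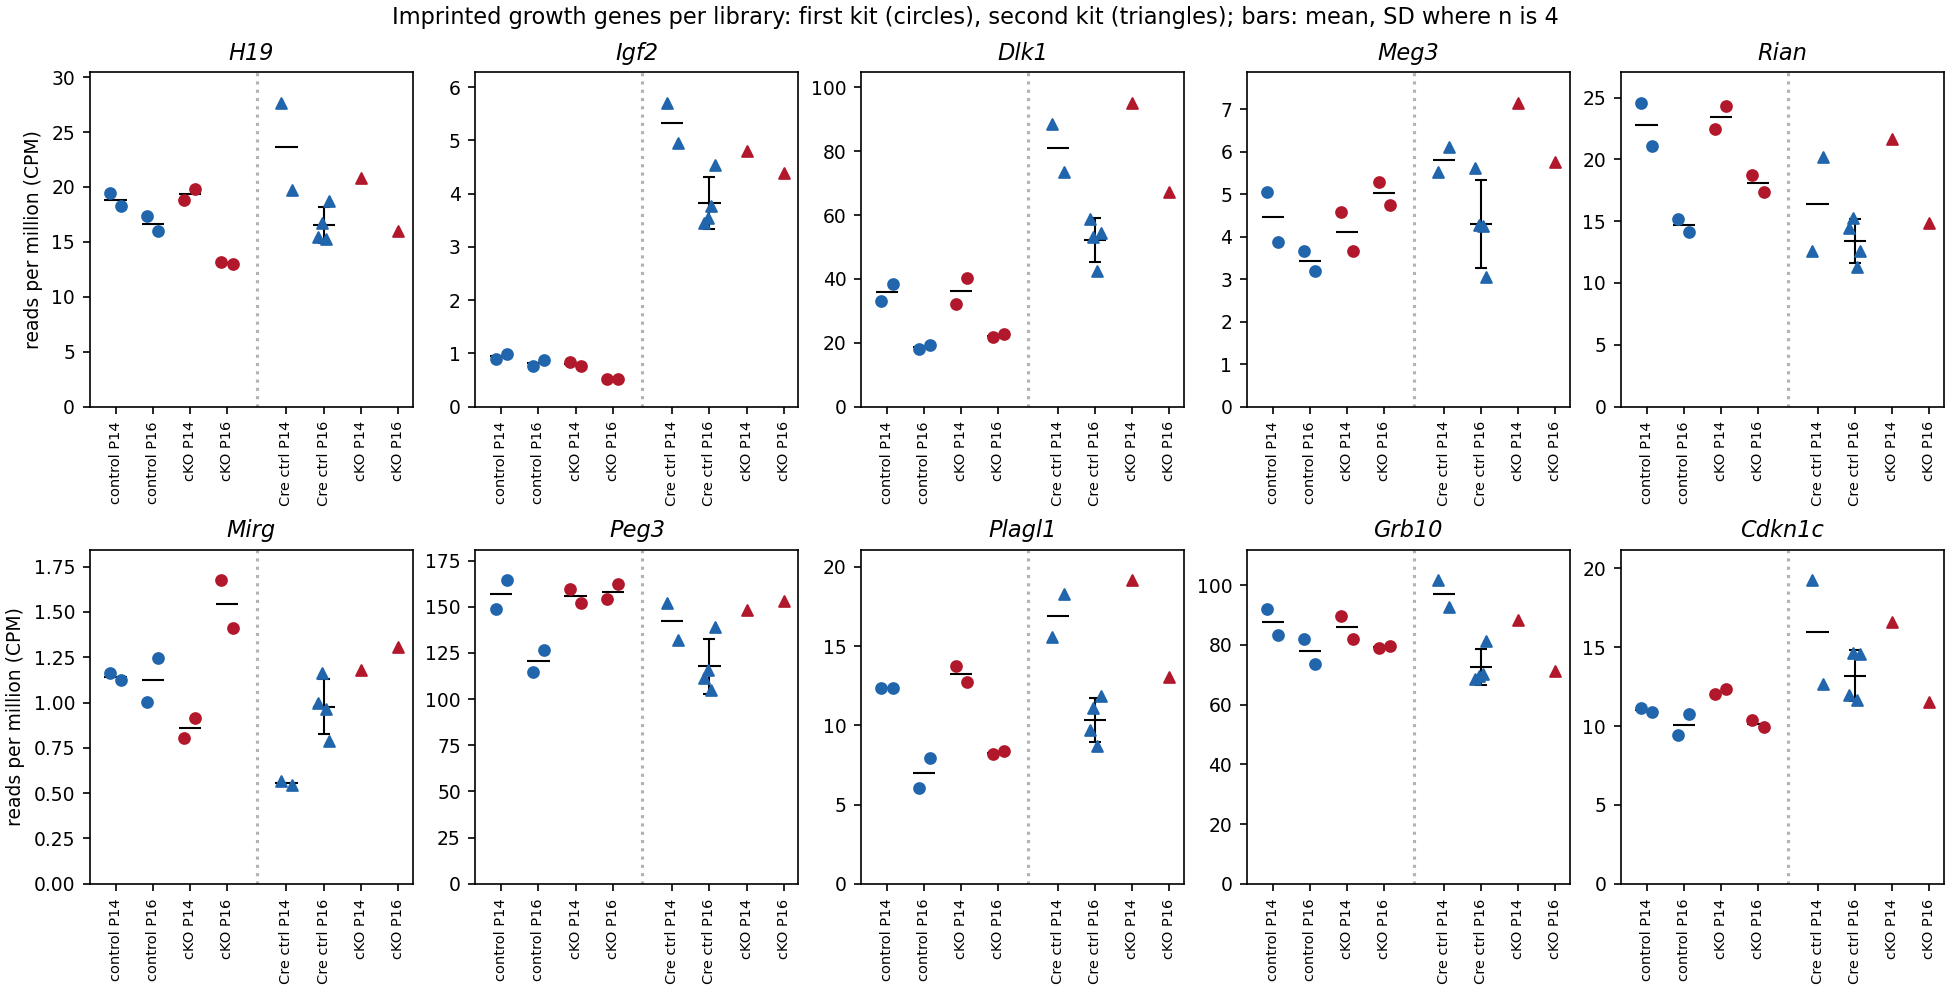
Level of each of the 10 genes in every library, in CPM (vertical axis, from 0), with circles for the first kit, triangles for the second, blue for control or Cre control, red for cKO, horizontal bars for means and the SD drawn where a group has 4 libraries. Dlk1 and Plagl1 are lower at P16 than at P14 in every group, and Igf2 sits between 0.522 and 0.990 with the first kit and between 3.45 and 5.71 with the second.

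The change from P14 to P16 in the controls asked whether the genes fell with age over these days. Dlk1 and Plagl1 fell most, to 52.3% and 56.5% of their P14 level, and Rian and Peg3 fell to 64.3% and 76.9%. All 10 log2 changes were below 0, and in 9 of the 10 both P16 libraries lay below both P14 libraries, against 31.6% of the 17641 genes tested. After adjustment over all genes, limma called 4 of the 10 lower, against 6.71% of all genes, and 0 higher, against 14.2%. The median log2 change was -0.28 over the 10 genes and -0.01 over all genes.

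Among the paternally expressed genes, Dlk1 stood at 33.0 and 38.6 CPM in the P14 controls and at 18.1 and 19.3 at P16. Its groups lay well apart, log2 change -0.93 ± 0.11 (SE; limma adjusted p 5.19e-04). Plagl1, a transcription factor gene at the hub of the imprinted network, stood at 12.39 and 12.37 CPM at P14 and at 6.03 and 7.95 at P16. It fell by 0.83 on the log2 scale (SE 0.13, limma adjusted p 0.00207), with the P16 libraries further apart than those of P14. Peg3, whose zinc finger protein takes part in growth and maternal behaviour, stood at 149 and 165 CPM at P14 and at 115 and 126 at P16. It fell by 0.38 (SE 0.07, limma adjusted p 0.00323). Igf2 held 0.894 and 0.990 CPM at P14 and 0.764 and 0.880 at P16, without overlap, but its change of -0.19 (SE 0.27) did not pass the test (limma adjusted p 0.656).

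Among the maternally expressed non-coding RNAs, Rian, the host of small nucleolar RNAs, stood at 24.6 and 21.1 CPM in the P14 controls and at 15.2 and 14.1 at P16. It fell by 0.63 on the log2 scale (SE 0.10, limma adjusted p 0.00168). Meg3 and Mirg, the other non-coding RNAs of its domain, did not pass the test, whereas Dlk1 of the same domain did. Meg3, a long non-coding RNA known as a growth suppressor, held 5.05 and 3.87 CPM at P14 and 3.66 and 3.19 at P16, log2 change -0.37 ± 0.18 (SE; limma adjusted p 0.189). Mirg held 1.16 and 1.12 CPM at P14 and 1.01 and 1.25 at P16, where the groups overlapped. H19, the non-coding neighbour of Igf2, held 19.5 and 18.2 CPM at P14 and 17.3 and 15.9 at P16, log2 change -0.18 ± 0.08 (SE; limma adjusted p 0.158). The growth restrainers showed small differences. Grb10 held 92.0 and 83.3 CPM at P14 and 82.0 and 73.6 at P16, and Cdkn1c held 11.1 and 10.9 at P14 and 9.41 and 10.8 at P16. Their log2 changes were -0.17 (SE 0.07) and -0.13 (SE 0.10), and neither passed the test (limma adjusted p 0.121 and 0.399). The 4 calls held in all 17 alternatives run for this comparison, leaving out single libraries included.

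In the cKO libraries of the first kit, Dlk1, Plagl1, Rian and H19 fell from P14 to P16 and Mirg rose. This was 4 of 10 called lower, against 15.2% of all genes, and 1 of 10 called higher, against 16.3%. Dlk1 stood at 32.2 and 40.3 CPM at P14 and at 21.7 and 22.7 at P16, log2 change -0.70 ± 0.11 (SE; limma adjusted p 0.00146). Plagl1 stood at 13.7 and 12.7 at P14 and at 8.16 and 8.38 at P16, log2 change -0.67 ± 0.13 (SE; limma adjusted p 0.00404). H19 stood at 18.8 and 19.8 at P14 and at 13.2 and 12.9 at P16, log2 change -0.56 ± 0.08 (SE; limma adjusted p 9.10e-04). The stages did not overlap for any of these 3 genes. Over all genes, 32.5% lay lower at P16 and 32.8% higher without overlap. Rian stood at 22.5 and 24.3 CPM and then at 18.7 and 17.4, log2 change -0.37 ± 0.10 (SE; limma adjusted p 0.0157). Mirg stood at 0.803 and 0.915 CPM and then at 1.68 and 1.41, log2 change 0.82 ± 0.24 (SE; limma adjusted p 0.0304). Peg3 was level, at 159 and 152 CPM and then at 154 and 162, log2 change 0.02 ± 0.07 (SE; limma adjusted p 0.841). Igf2 held 0.843 and 0.768 CPM and then 0.522 and 0.524, log2 change -0.59 ± 0.27 (SE; limma adjusted p 0.129), which passed without the mean-variance trend (0.0134). Rian, Mirg and Igf2 thus had stages that lay apart, while the Peg3 stages overlapped. The call for Rian was lost without cKO P14 library 2 (limma adjusted p 0.0549) or cKO P16 library 2 (0.104). That for Mirg was lost without cKO P14 library 1 (0.115), cKO P16 library 1 (0.165) or cKO P16 library 2 (0.0709), in DESeq2 (0.253) and with no filter on low reads (0.0748).

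The Cre controls of the second kit gave the same comparison in other libraries, with both P14 libraries and P16 library 1 in the same sequencing run and P16 libraries 2 to 4 in another. Dlk1, Plagl1 and Grb10 fell, which was 3 of 10 called lower, against 2.72% of 19172 genes, and 0 called higher, against 8.9%. Dlk1 stood at 88.5 and 73.6 CPM at P14 and at 58.8, 53.1, 42.6 and 54.2 at P16, log2 change -0.64 ± 0.14 (SE; limma adjusted p 0.0138). Plagl1 stood at 15.6 and 18.3 at P14 and at 9.72, 11.1, 8.73 and 11.8 at P16, log2 change -0.71 ± 0.17 (SE; limma adjusted p 0.0219). Grb10 stood at 102 and 92.5 at P14 and at 68.6, 69.6, 70.2 and 81.4 at P16, log2 change -0.42 ± 0.10 (SE; limma adjusted p 0.0261). All 3 genes had stages that did not overlap, and 16.9% of all genes lay lower at P16 without overlap. H19, at -0.50 (SE 0.17), Igf2, at -0.48 (SE 0.21), Meg3, at -0.46 (SE 0.25), Peg3, at -0.28 (SE 0.12), Rian, at -0.26 (SE 0.20), and Cdkn1c, at -0.25 (SE 0.19), were below 0 without passing the test. Mirg was at 0.75 (SE 0.33, limma adjusted p 0.178), on 8 and 9 reads at P14 and 16 to 22 at P16. With the sequencing run as a covariate the adjusted p rose to 0.155 for Dlk1, 0.0732 for Plagl1 and 0.0633 for Grb10. Without Cre control P14 library 1 it rose to 0.169, 0.0702 and 0.182 in the same order. Plagl1 was also lost without Cre control P14 library 2 (0.106) or P16 library 3 (0.0662), and Grb10 without P16 library 2 (0.0685) or 3 (0.0857). With no filter, or without the mean-variance trend, the adjusted p of the 3 genes lay between 0.0648 and 0.129. H19 passed without Cre control P14 library 2 (0.0292), and Peg3 without P16 library 4 (0.0476).

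**Figure D2:**
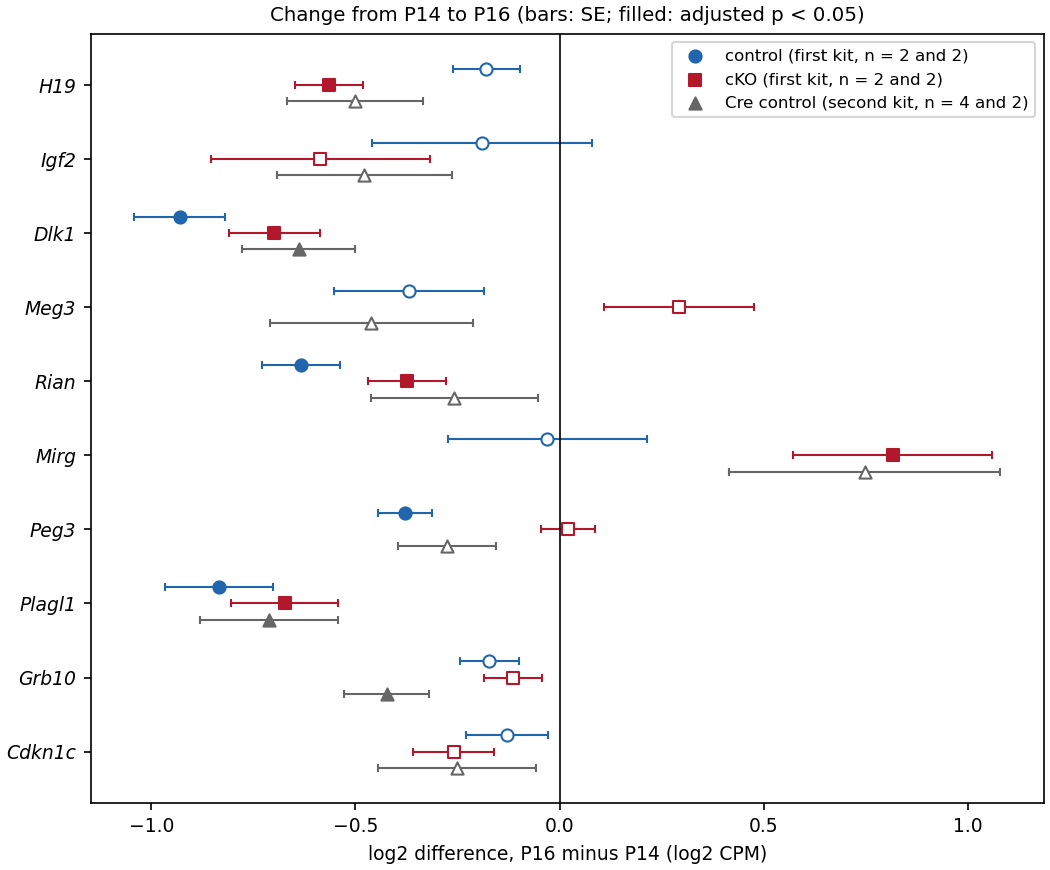
Log2 change from P14 to P16 (horizontal axis, log2 CPM) of the 10 genes in control (circles), cKO (squares) and Cre control (triangles) libraries, with the SE as bars and filled symbols for an adjusted p under 0.05. Dlk1 (-0.93, -0.70 and -0.64) and Plagl1 (-0.83, -0.67 and -0.71) are filled in all 3 groups, and Peg3 sits at -0.38 in control and at 0.02 in cKO.

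Cell type markers moved over the same days, so their levels are given beside these falls. From P14 to P16 in the controls, the summed level of 7 interstitial stroma markers went from 2617 to 2753 CPM down to 1736 to 1860, with 4 of the 7 called lower. The sum of 6 macrophage markers went from 140 to 148 CPM down to 99.1 to 108, with 4 of 6 called lower, and 5 of 6 peritubular myoid markers were called lower. Of 10 spermatocyte markers, 7 were called higher, and their sum went from 1525 to 1638 CPM up to 2355 to 2411. In the Cre controls 0 of the 7 stroma markers and 0 of the 6 macrophage markers were called, while 3 of the 6 myoid markers were called lower and 6 of the 10 spermatocyte markers higher. In the first-kit cKO libraries 2 of the 7 stroma, 2 of the 6 myoid, 0 of the 6 macrophage and 6 of the 10 spermatogonial markers were called lower, while 6 of the 10 spermatocyte markers and 2 of the spermatogonial ones were called higher. Over all genes, 6.71% were called lower and 14.2% higher in control, and 2.72% and 8.9% in Cre control. In the first-kit cKO libraries the shares were 15.2% and 16.3%. The Leydig cell marker Insl3 was at 0 in 10 of the 16 libraries, and no other listed marker was at 0 in any. In whole-testis RNA, fewer cells of a type and less RNA per cell cannot be told apart. The part of these markers in the changes of Dlk1, Plagl1, Rian, Peg3, H19, Mirg and Grb10 was not tested.

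At P14, the day after the last tamoxifen dose, the comparison of cKO with control asked which of the genes differed early. Called were 0 of the 10 genes, against 0.00579% of 17270 genes, and 0 of the 10 had an unadjusted limma p under 0.05. edgeR and DESeq2 on the recovered reads also called 0 of the 10. The values of this comparison are the deposited normalised read counts of the table. The log2 differences lay between -0.39 for Mirg (SE 0.27) and 0.15 for Cdkn1c (SE 0.10), with a median of 0.01 for the 10 genes and 0.01 for all genes. Peg3 read 3584 and 3964 in control libraries and 3858 and 3673 in cKO ones, a difference of -0.00 (SE 0.06). Dlk1 read 794 and 929 in control libraries and 779 and 973 in cKO ones, and the groups overlapped for both genes. Igf2 and Mirg were lower in both cKO libraries, at 20.4 and 18.5 against 21.5 and 23.8 for Igf2 and at 19.4 and 22.1 against 27.99 and 27.1 for Mirg. Plagl1 and Cdkn1c were higher in both, at 332 and 307 against 298.2 and 298.0 for Plagl1 and at 290.3 and 298 against 268 and 262 for Cdkn1c. That made 2 genes lower and 2 higher without overlap, against 14.5% and 15.1% of all genes.

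At P16 the paternally expressed genes Peg3 and Dlk1 and the non-coding RNAs Meg3 and Rian were higher in cKO than in control, and H19 was lower. This was 4 of 10 called higher, against 18.6% of 17986 genes, and 1 of 10 called lower, against 19.9%. The libraries of the groups did not overlap for 8 of the 10, against 69.7% of all genes, so separation of groups by itself was common at this stage. The median log2 difference was 0.25 over the 10 genes and -0.00 over all genes.

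Peg3 had the smallest p of the 10 genes. It read 2963 and 3262 in control libraries and 4009.8 and 4166 in cKO ones, which put the cKO mean at 131% of the control mean, log2 difference 0.39 ± 0.05 (SE; limma adjusted p 9.27e-05). The call held when any single library was left out and in edgeR and DESeq2, and it was lost in limma without the mean-variance trend (adjusted p 0.0581). Dlk1 read 469 and 497 in control libraries and 565 and 583 in cKO ones, log2 difference 0.25 ± 0.08 (SE; limma adjusted p 0.0200). Plagl1 read 156 and 205 in control libraries and 213 and 215 in cKO ones, which did not overlap, with a difference of 0.26 (SE 0.14) that did not pass the test (limma adjusted p 0.157). Igf2 was lower in both cKO libraries, at 13.6 and 13.5 against 19.7 and 22.7, on 13 to 24 reads a library, and its difference of -0.61 (SE 0.33) did not pass the test (limma adjusted p 0.162). Without the mean-variance trend Igf2 did pass (limma adjusted p 0.0455), and Plagl1 passed without control library 2 (0.0351).

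Of the non-coding RNAs, Meg3 read 94.6 and 82.2 in control libraries and 138 and 122 in cKO ones, which put the cKO mean at 147% of the control mean. Its log2 difference was 0.55 (SE 0.16, limma adjusted p 0.0134). Rian read 393 and 365 in control libraries and 488 and 446 in cKO ones, log2 difference 0.30 ± 0.09 (SE; limma adjusted p 0.0151). H19 went the other way, with 448 and 411 in control against 343 and 332 in cKO, log2 difference -0.35 ± 0.09 (SE; limma adjusted p 0.00742). In each of these 3 genes the groups did not overlap. Mirg read 25.98 and 32.1 in control libraries and 43.7 and 36.3 in cKO ones, log2 difference 0.45 ± 0.25 (SE; limma adjusted p 0.187). For the restrainers of growth the groups overlapped. Grb10 held 2121 and 1897 in the controls and 2051 and 2048 in cKO, and Cdkn1c held 243 and 278 against 271 and 255. Their differences were 0.03 (SE 0.06) and 0.01 (SE 0.11).

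The calls for H19, Dlk1, Meg3 and Rian did not hold under every alternative. DESeq2 gave adjusted p of 0.0508, 0.103, 0.0827 and 0.0722 for them in that order, and limma without the trend gave 0.0629, 0.0827, 0.0617 and 0.0900. H19 was lost without control library 1 (limma adjusted p 0.0904), and Dlk1 without control library 1 (0.154) or cKO library 2 (0.0572). Meg3 was lost without control library 2 (0.0865) or cKO library 1 (0.0870), and Rian without the same libraries (0.117 and 0.0847). None of the log2 differences of these 4 genes changed sign.

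**Figure D3:**
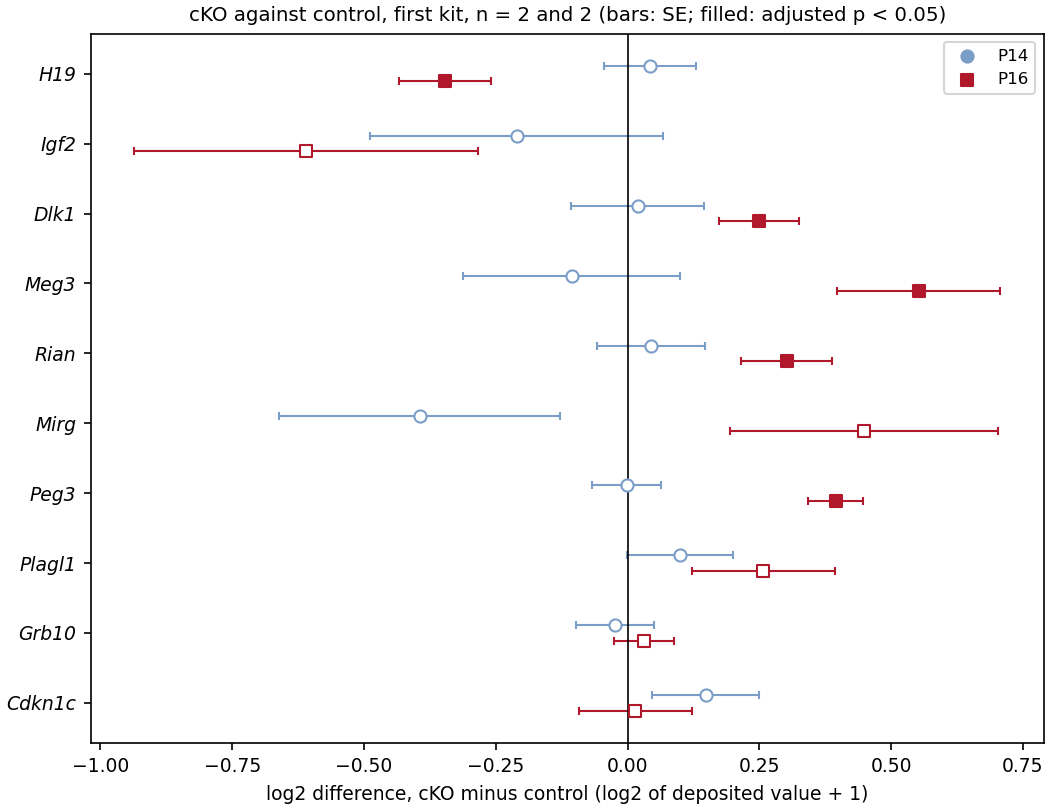
Log2 difference of cKO minus control (horizontal axis, on log2 of the deposited value plus 1) for the 10 genes at P14 (circles) and P16 (squares), first kit, 2 libraries a group, with the SE as bars and filled symbols for an adjusted p under 0.05. The P14 points lie between -0.39 and 0.15 and none is filled, while at P16 Meg3, Peg3, Rian and Dlk1 are filled above 0 and H19 below.

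An interaction term fitted to the first-kit libraries asked whether the cKO difference itself changed with stage. Peg3 passed, which was 1 of 10 called higher, against 2.99% of all genes, and 0 of 10 called lower, against 5.46%. For Peg3 the cKO difference was larger at P16 than at P14 by 0.40 on the log2 scale (SE 0.09, limma adjusted p 0.0317). Its levels were 157 ± 11.1 and 121 ± 8.39 CPM in control at P14 and P16, and 156 ± 5.15 and 158 ± 5.75 in cKO (SD, n = 2 each). The interaction of H19 was -0.39 (SE 0.12, limma adjusted p 0.0723), and those of Meg3 and Mirg were 0.66 (SE 0.26, limma adjusted p 0.144) and 0.85 (SE 0.35, limma adjusted p 0.158). For Dlk1, Plagl1, Rian, Igf2, Grb10 and Cdkn1c the interaction did not pass the test either, so a difference between the stages was not shown for them. The call for Peg3 was lost without control P14 library 2 (limma adjusted p 0.0993), control P16 library 1 (0.129) or 2 (0.0595), or cKO P16 library 1 (0.0805) or 2 (0.0913), with no filter (0.0818) and without the trend (0.139). H19 passed without cKO P14 library 1 (0.0484).

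Against the Cre controls, where 2 of the 3 cKO libraries differ from every control in kit, 0 of the 10 genes were called at P14, against 0.0% of 18196 genes, and 0 of the 10 had an unadjusted limma p under 0.05. For all genes this comparison gave 705 at an unadjusted p under 0.05, 0 calls in edgeR and 5 in DESeq2. Ythdc2 itself was thus not called at P14 by limma or edgeR, and was called by DESeq2 (adjusted p 0.0148). At P16 Peg3 was higher, which was 1 of 10 called higher, against 4.3% of 19200 genes, and 0 of 10 called lower, against 4.77%. Peg3 read 2187, 2271, 2085 and 2740.5 in the Cre controls and 3284, 3434 and 2955 in cKO, log2 difference 0.48 ± 0.11 (SE; limma adjusted p 0.0439). All 3 cKO libraries lay above all 4 Cre controls, whichever kit they came from, as did those of 13.2% of all genes. The call was lost when any single Cre control was left out (limma adjusted p 0.0720 to 0.134) or without cKO library 1 (0.191) or 2 (0.181). Those fits called 0 of all genes tested, so Ythdc2 was not called in them either. Peg3 was also lost with no filter (limma adjusted p 0.0549), without the mean-variance trend (0.0745) and with the kit as a covariate among these 7 libraries (0.220). The fit with the kit as a covariate called 1 gene in all. In this table Igf2 stood at 67.8 to 89.5 in the Cre controls, at 11.1 in both cKO libraries of the first kit and at 84.7 in that of the second. Without cKO library 3, Igf2 and Dlk1 were called lower at P14 (limma adjusted p 8.53e-04 and 0.00270) and at P16 (9.94e-06 and 6.99e-05). Rian (limma adjusted p 0.0102) and Mirg (0.0414) were then called higher at P16, where Peg3 kept its call. Over all genes, such fits called 3821 lower and 2435 higher of 17924 at P14. At P16 they called 5584 lower and 3843 higher of 19046, so calls were common there. In those fits kit and genotype cannot be told apart.

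The third cKO library, set against Cre controls of its own kit, gives a comparison within a kit but with a single cKO library, and so with no test. At P16 it lay above all 4 Cre controls for Dlk1 (1298 against 846 to 1154), Meg3 (111 against 60.3 to 110), Mirg (25.1 against 15.6 to 22.8), Peg3 (2955 against 2085 to 2740.5) and Plagl1 (251 against 173 to 233). It lay within them for H19, Igf2, Rian and Grb10, and below them for Cdkn1c (222 against 232 to 288). Over all genes, 24.0% lay above and 30.0% below the Cre controls in the same way. Among the 4 Cre controls, library 1 was sequenced in the run of this cKO library and the others in another run. Against library 1 alone, Peg3 held 2955 against 2187, Plagl1 251 against 191, Mirg 25.1 against 19.5 and Dlk1 1298 against 1154, while Meg3 was level at 111 against 110. At P14 all second-kit libraries came from a single run. There the third cKO library lay above both Cre controls for Dlk1 (1733 against 1335 and 1626), Meg3 (130.3 against 101 and 111) and Rian (395 against 230 and 366). It also lay above them for Mirg (21.5 against 9.85 and 10.4) and Plagl1 (349 against 286 and 331). It lay within them for Peg3 (2695 against 2393 and 2794), H19 and Cdkn1c, and below them for Igf2 and Grb10, with 26.9% of all genes above and 33.3% below. The number of the 10 genes above the Cre controls was thus 5 at each stage, with Peg3 among them at P16 only. With both control types and all 3 cKO libraries of P16 in a single fit, and the kit as a covariate, Peg3 was called at 0.39 (SE 0.09, limma adjusted p 0.0172). In that fit Dlk1 was at 0.30 (SE 0.10, limma adjusted p 0.0606), Meg3 at 0.50 (SE 0.18, 0.0886), Plagl1 at 0.29 (SE 0.14, 0.170), Rian at 0.23 (SE 0.11, 0.183) and H19 at -0.22 (SE 0.11, 0.188).

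Marker levels are again given beside the P16 differences. Summed levels in the first-kit libraries were 2124 to 2211 CPM in cKO against 1736 to 1860 in control for interstitial stroma markers, with 4 of 7 called higher. They were 138 to 139 against 99.1 to 108 CPM for macrophage markers, with 5 of 6 called higher, and 5193 to 5661 against 4346 to 4523 CPM for Sertoli cell markers, with 7 of 10 called higher. Spermatogonial markers summed to 609.7 to 612 CPM in cKO and 763 to 772 in control, with 7 of 10 called lower and 2 called higher. Of 9 Leydig cell markers 8 were tested and 3 were called higher. Over all genes, 18.6% were called higher and 19.9% lower in this comparison. For the second kit, cKO library 3 had 145 CPM of macrophage markers, above the 101 to 127 of the Cre controls, and 3558 CPM of stroma markers, within their 2626 to 3838. It also had more of the Sertoli cell markers (6737 CPM against 5261 to 6561) and endothelial markers (173 against 126 to 168) and less of the spermatocyte markers (1401 against 1505 to 2335), while its spermatogonial markers, at 830.4 CPM, lay within the 709 to 890.2 of the Cre controls. The part of these markers in the differences of Peg3, Dlk1, Meg3, Rian and H19 was not tested.

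The genes also varied among themselves across the 16 libraries. With each kit centred on its own mean log2 level, Dlk1 and Plagl1 had the highest correlation of any pair of the 10 (Pearson r 0.918), followed by H19 and Igf2 (0.831). H19 and Mirg had the lowest (-0.724). The genes most like Dlk1 among 14680 others were Map2 (r 0.960), a microtubule-associated protein gene, and Gpc3 (0.925), a cell-surface proteoglycan gene that restrains growth. Most like Plagl1 were Myh6 (0.973) and Nrk (0.956). Most like Peg3 were Creb3l2 (0.949) and Prlr (0.940), the latter the prolactin receptor gene, and most like H19 were Gtf3a (0.970) and Atp6ap2 (0.966). Rian was most like Anxa4 (0.945) and Vstm4 (0.933), and Meg3 most like Rap1a (0.881) and Fbxl7 (0.881). These values are descriptions over libraries that share stages, genotypes and depth, and no test was made of them.

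Other imprinted genes were listed for comparison, 44 in all, of which 37 passed the filter. In the controls, 9 of the 37 were called lower from P14 to P16 and 3 higher, against 6.71% and 14.2% of all genes. Their median log2 change was -0.16. The largest falls were in Zim1 (-1.12, SE 0.19), the neighbour of Peg3, Nnat (-0.69, SE 0.18), a membrane proteolipid gene, and Mest (-0.49, SE 0.14), a paternally expressed growth gene. The rises were in Asb4 (1.15, SE 0.27), Trappc9 (0.29, SE 0.05) and Copg2 (0.16, SE 0.05). At P16, 12 of the 37 were called higher in cKO and 4 lower, against 18.6% and 19.9% of all genes, with a median of 0.13. The largest differences above 0 were in Ddc (1.27, SE 0.28), which encodes an amino acid decarboxylase, Zim1 (0.80, SE 0.17) and the non-coding RNA Kcnq1ot1 (0.71, SE 0.10). The largest below 0 were in Dio3 (-1.18, SE 0.37), the thyroid hormone deiodinase gene at the far end of the Dlk1 domain, Nap1l5 (-1.13, SE 0.37) and Phlda2 (-0.98, SE 0.30), a placental growth restrainer near Cdkn1c. Dio3 stood at 20.4 ± 2.06 in control and 8.48 ± 1.74 in cKO (SD, n = 2 each). In the fit of both control types with the kit as a covariate, Dio3 was at -0.29 (SE 0.38, limma adjusted p 0.645), and Zim1 (0.63, 0.0822), Nap1l5 (-0.71, 0.196) and Phlda2 (-0.76, 0.0680) were not called either, whereas Ddc (1.46, 0.0105) and Kcnq1ot1 (0.72, 0.00364) were.

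**Figure D4:**
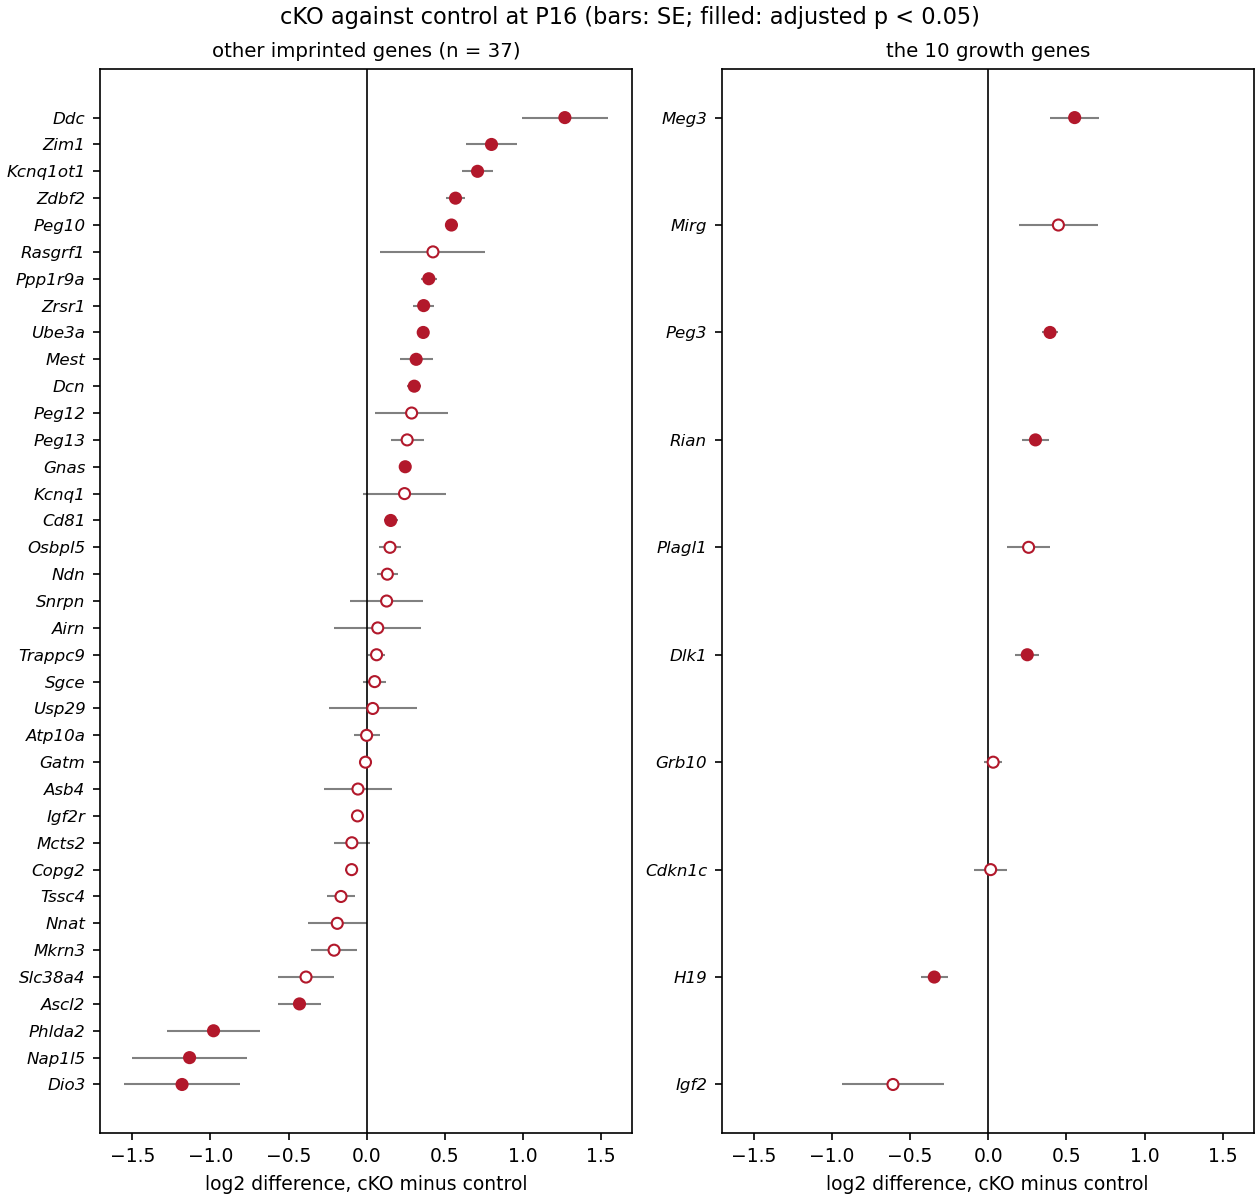
Log2 difference of cKO minus control at P16 (horizontal axis, on log2 of the deposited value plus 1) for 37 other imprinted genes (left) and the 10 growth genes (right), each sorted by size, with the SE as bars and filled symbols for an adjusted p under 0.05. Filled symbols lie on both sides of 0, from Dio3 at -1.18 to Ddc at 1.27, and those of the 10 growth genes lie between -0.35 (H19) and 0.55 (Meg3).

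The insulin-like growth factor pathway, through which Igf2 and Grb10 act, was followed in a list of 20 genes, 17 of them tested. In the controls, 4 were called lower from P14 to P16 and 1 higher, against 6.71% and 14.2% of all genes. Igf1, the other growth factor gene of the pathway, fell from 145 ± 23.3 to 76.1 ± 19.1 CPM (SD, n = 2 each), a log2 change of -0.94 (SE 0.18). In the Cre controls Igf1 changed by -0.97 (SE 0.21), and the receptor gene Igf1r by -0.45 (SE 0.13). At P16, 8 of 17 were called higher in cKO and 2 lower, against 18.6% and 19.9% of all genes. The widest above 0 was Igf2bp3 (0.74, SE 0.06), which encodes an RNA-binding protein of Igf2 messages. Pappa (0.65, SE 0.12), a protease that frees growth factor from binding proteins, and the insulin receptor gene Insr (0.50, SE 0.08) came next. The binding protein gene Igfbp2 (-0.75, SE 0.07) and Igf2bp1 (-0.18, SE 0.06) were lower. In the fit of both control types, Pappa (0.40, limma adjusted p 0.140) and Igf2bp1 (-0.00, 0.993) were no longer called, whereas Igf2bp3, Insr and Igfbp2 (0.64, 0.45 and -0.53) were.

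Relatives and partners of the 10 genes included Notch pathway genes and cell cycle inhibitors. Of 19 listed, 2 were called lower and 0 higher from P14 to P16 in the controls, against 6.71% and 14.2% of all genes. These were Notch3 (-0.33, SE 0.09) and Notch2 (-0.25, SE 0.06), receptor genes of the pathway that Dlk1 modulates. At P16, 5 were called higher in cKO and 3 lower, against 18.6% and 19.9% of all genes. Cdkn1a, a cell cycle inhibitor related to Cdkn1c, was higher (0.78, SE 0.18), and the Notch target Hey1 (-1.65, SE 0.11) and the ligand gene Jag2 (-1.06, SE 0.08) were lower. Of 14 genes that keep or erase imprints, 3 were called higher and 4 lower at P16, against the same 18.6% and 19.9% of all genes. Ctcfl, a germ cell relative of the imprint-binding factor CTCF, stood at 418 ± 40.6 in control and 96.8 ± 25.7 in cKO (SD, n = 2 each), a difference of -2.12 (SE 0.16). The maintenance methylase gene Dnmt1 (-0.53, SE 0.05) and its partner Uhrf1 (-0.44, SE 0.05) were lower, and Tet1 (0.43, SE 0.08), which oxidises methylated cytosine, was higher. Of 11 growth genes that are not imprinted, 10 were tested, of which 2 were called higher and 3 lower in cKO at P16. This again stands beside 18.6% and 19.9% of all genes. Among the lower ones were Lin28a (-0.75, SE 0.07) and Lin28b (-0.49, SE 0.08). In the fit of both control types, Cdkn1a (0.48, limma adjusted p 0.0901) and Lin28a (-0.43, 0.121) were no longer called. Hey1 (-0.97, 0.0326) and Ctcfl (-1.35, 0.0139) were called there with smaller differences, and Jag2, Dnmt1, Uhrf1, Tet1 and Lin28b were called too.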

How the data were processed

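RNA of whole testes was sequenced in 16 libraries of known group. Per the submitters' processing notes, Trim Galore, STAR, HTSeq and DESeq2 were used with the GRCm39 (mm39) build; versions, annotation release and strand setting are not given in the sources used here. The authors deposited 4 tables, 1 for each stage and control type, holding a signal, namely each gene's reads scaled by a size factor of the library. In all 20 columns, 100% of values were whole multiples of 1 read (tolerance 0.01), so whole reads were recovered. The 4 cKO libraries of the first kit appear in 2 tables and were counted once. Mapping summary rows held 53.4% to 63.0% of each column's reads and were left out. Names came from GENCODE M21 (52081 of 55414 IDs matched), and its exons gave lengths and overlaps, not coordinates.

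Comparisons of cKO with a control type used limma 3.58.1 (R 4.3.3, eBayes with trend) on log2(deposited value + 1) within a table, keeping genes that reached 10 in 2 or more libraries. Such fold changes understate the change of low genes. Comparisons of stages, and the interaction, used limma on log2 CPM (prior count 1, TMM factors) computed within a kit from the recovered reads, keeping genes that reached 0.5 CPM in 2 or more libraries. P-values were adjusted by Benjamini-Hochberg over all genes tested, and a gene was called where this fell under 0.05. Alternatives were edgeR 4.0.16 and DESeq2 1.42.0 on the recovered reads, other pseudocounts, filters and scalings, eBayes without trend, replicate blocks, kit or run as a covariate, and leaving out each library. The fits were tested on simulated data. Described were the 10 genes, and from the other lists the called genes that rose or fell furthest, at most 3 each way in a comparison, and for likeness the 2 genes with the highest correlation. The members and lists were chosen with earlier results of these data known.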

Additional observations from a re-analysis of the deposited data

Results flagged for a closer look

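For the following genes the cKO difference in the first-kit libraries changed between P14 and P16 by the test of the interaction itself (limma, adjusted p under 0.05); values are log2 differences at P16 minus those at P14. Over all genes, 2.99% passed above 0 and 5.46% below. Among the 10 imprinted growth genes the gene that passed was Peg3, at 0.40. Of 6 such genes among the other imprinted ones, the largest were Ddc at 1.34, Kcnq1ot1 at 0.89 and Dcn, a matrix proteoglycan gene, at 0.43. In the insulin-like growth factor pathway, with 4 higher and 1 lower, it was foremost Igf2bp3 at 0.67, Insr at 0.53, Igfbp6 at 0.42 and Igfbp2 at -0.76. Among the Notch partners of Dlk1 it was Hey1 at -1.59 and Jag2 at -1.05. Among genes that keep imprints it was Ctcfl at -1.84, Dnmt1 at -0.43 and Uhrf1 at -0.38, and among growth genes that are not imprinted Lin28a at -0.56 beside Igf2bp3. Among the 4 Cre controls at P16, Grb10 in library 4 lay apart from the others in CPM, with a gap of 0.878 of the range, above Dixon's 95% value; on the deposited values no gene passed. Without that library the fall of Grb10 from P14 to P16 was -0.48 (limma adjusted p 0.0111). In all, 20 sets of 4 values were examined, of which chance flags about 1 in 20, and other groups were too small.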

How the results depend on the processing

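Over the 10 genes and 8 comparisons, 1297 values were recomputed under alternatives, and 0 of the 19 called values changed sign. Among the 61 values not called, signs changed 54 times, as for Dlk1 against Cre control at P16, which ran from -1.11 to 0.35. On the recovered reads, edgeR called 1 gene for cKO against control at P14 and 6983 at P16, and 0 and 1554 against Cre control. For all genes, the counts of calls moved as follows. In cKO against control at P14 the call of 1 gene became 0 with no filter and 0 without the trend, and 6 in DESeq2. At P16 the 6939 calls became 1806 without the trend and 2738 with both control types and the kit as a covariate. Against Cre controls at P14, 0 became 5 in DESeq2 and 1 in the fit of both control types. At P16, 1741 became 3277 with a pseudocount of 10, 917 with no filter, 4188 in DESeq2, 32 without the trend, 1 with the kit as a covariate and 2738 in the fit of both control types, while edgeR called 1027 higher and 527 lower against 825 and 916. From P14 to P16, 3691 calls in control became 2311 without the trend, and 2228 in Cre control became 49 with no filter and 833 without the trend. The 1491 interactions became 727 with no filter and 184 without the trend. Leaving out each library in turn gave 0 to 11 calls for cKO against control at P14, 4591 to 7045 at P16, 0 to 6256 against Cre control at P14 and 0 to 9427 at P16, the latter pair of maxima arising without cKO library 3. It gave 1668 to 4709 for the stages in control, 3486 to 5418 in cKO, 593 to 2771 in Cre control, and 287 to 3160 interactions. Where an arm kept a single library, it was assumed to vary like the others.

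Replicate numbers are shared between groups but the labels do not pair the libraries, and same-numbered deviations correlated between -0.219 and 0.191. With the replicate number as a block, calls went to 5 for cKO against control at P14, 8200 at P16, 6966 and 0 against Cre control at P14 and P16, and 2349 interactions. At P14 the block absorbs cKO library 3, which has no Cre control of its number, so the 6966 calls, with Igf2, Dlk1 and Rian among them (limma adjusted p 4.20e-05, 7.50e-05 and 0.0115), compare first-kit cKO with second-kit controls. Under the block, Peg3 at P16 was called against control but not against Cre control (limma adjusted p 0.110), Grb10 was called from P14 to P16 in control (0.0404), and Plagl1 and Grb10 were not called in Cre control (0.0869 and 0.0673). Depth limits Igf2 and Mirg most, each resting on fewer than 50 reads in every first-kit library. In the P14 table, Ythdc2 was called in limma except with no filter, without the trend and without either control library.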
